A study of Mus musculus with 6 samples.

Results

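The genes described here carry glucose into the heart muscle cell, break it down to pyruvate and lactate, and store it as glycogen. The list holds 33 genes chosen by name: 4 glucose transporters, the enzymes of every step of glycolysis with their isoforms, the lactate dehydrogenases and monocarboxylate transporters, 2 pyruvate dehydrogenase kinases and 3 enzymes of glycogen. Every probe set annotated with one of these symbols alone was taken, and 29 of the 33 genes had at least 1, giving 36 of the 35556 probe sets measured. Gapdh, Gpi1, Eno1 and Pfkfb1 had no probe set of their own.

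Transcripts of the heart were read in male mice aged 3 months with 6 Mouse Gene 1.0 ST arrays, which carry probes along the length of each transcript. WT mice, the controls, filled 3 arrays, and VAChT KD mice filled the other 3. The VAChT KD mice are homozygous for a knockdown allele of the vesicular acetylcholine transporter (gene Slc18a3), the carrier that loads acetylcholine into the vesicles of cholinergic nerve endings. No treatment was given to either group, and 2 RNA samples were pooled for every array, so that single animals cannot be told apart. The labels give C57BL/6 and heart, whereas the methods describe ventricles and a mixed background backcrossed for 3 generations only. The allele was inherited and present in the whole animal, and in bulk tissue fewer cells of a type and less RNA per cell cannot be told apart. The comparison asks whether a long-lasting loss of cholinergic tone altered the transcripts of cardiac glucose use.

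The adult heart draws most of its energy from fatty acids, with glucose, glycogen and lactate as further fuels. Glucose enters through a basal transporter and through an insulin-responsive one, is trapped by hexokinase and is split to pyruvate, which is either reduced to lactate or oxidised in mitochondria. Many steps are served by isoforms of separate genes, of which one is typical of striated muscle and others of brain, liver or dividing cells, and a failing heart is known to return towards the fetal choice.

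Values are log2 signals summarised by the robust multi-array average (RMA), so a difference of 1 is a doubling. Signals of different probe sets depend on their probes and were not ranked against each other. As a guide to background, 1035 probe sets of olfactory receptors, genes of the nasal sensory lining, had a median of 4.71 and a 95th percentile of 6.5, although the brightest reached 9.08. Differences are VAChT KD minus WT with the standard error (SE) of limma over 3 arrays per group, and p-values measure only the spread between these pools.

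The array VAChT KD 1 stood apart at the bright end, where 11 of the 29 genes lie. Its highest signal was 13.70, against 14.71 to 14.90 on the other arrays, and none of its probe sets exceeded 14, against 61 to 70 elsewhere. Set against the median of the 6 arrays, it read probe sets between 12 and 13 lower by a median of -0.16, those between 13 and 14 by -0.31, and those above 14 by -0.99, while between 8 and 10 the median was -0.01. Array pairs correlated at 0.982 to 0.994 over all probe sets, and no pair was identical. Other checks concern the labels. Slc18a3 itself read 7.31, 7.42 and 7.11 on the WT arrays and 7.24, 6.78 and 7.58 on the VAChT KD arrays, a difference of -0.08 (SE 0.20, adjusted p = 0.873 in limma) that separated no group. Ogdhl read 9.60, 7.21 and 10.33 in WT and 7.06, 10.17 and 7.09 in VAChT KD, so that on the arrays numbered 2 of both groups it went against the other arrays of that label. The paper reports Ogdhl as lower in VAChT KD hearts, on its arrays and by quantitative PCR. Under the deposited labels the difference was -0.94 (SE 1.03, adjusted p = 0.700 in limma). With the labels of both arrays numbered 2 exchanged, Ogdhl would be high on every WT array and low on every VAChT KD array. The Ogdhl fold decrease listed by the paper matches the group means under this exchange and far exceeds that under the deposited labels. The deposited labels were kept, so the differences given here rest on labels that do not reproduce that listed fold. Other genes of the paper's list were not compared with either assignment. Results are therefore also given without VAChT KD 1 and, for the group and some of its genes, without both arrays numbered 2.

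**Figure D1:**
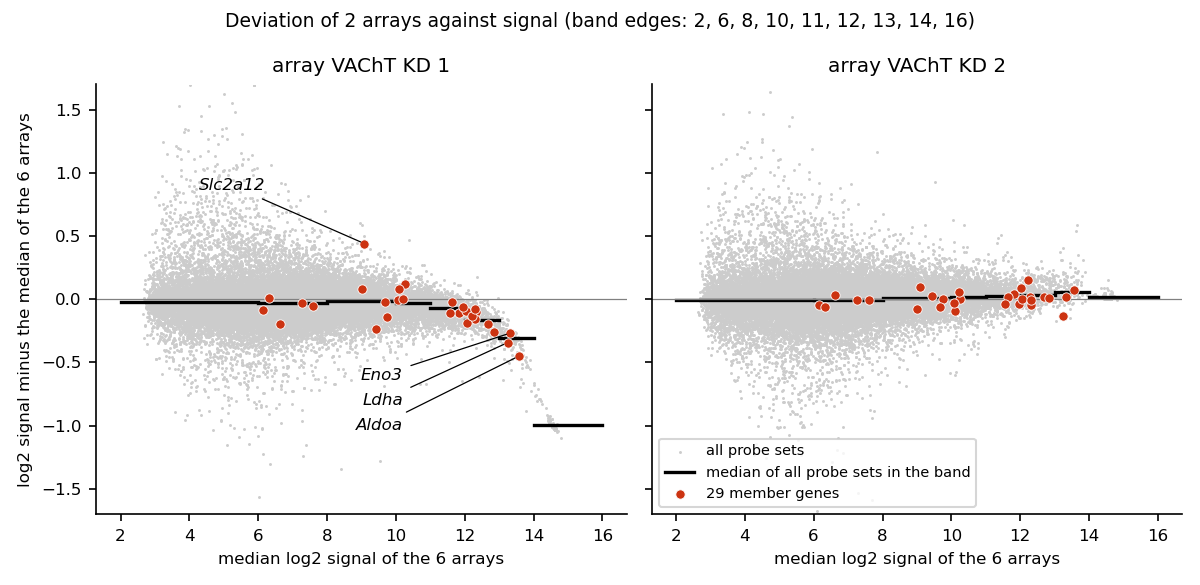
Deviation of each probe set on arrays VAChT KD 1 (left) and VAChT KD 2 (right) from the median of the 6 arrays (vertical axis, log2) against that median (horizontal axis, log2 signal), with grey points for all probe sets, black lines for medians of signal bands and red points for the 29 genes; 8 probe sets of VAChT KD 1 and 2 of VAChT KD 2 lie outside the vertical axis. On VAChT KD 1 the black lines fall from -0.16 to -0.99 above a signal of 12 and the red points above 13, Aldoa, Eno3 and Ldha, fall with them, while Slc2a12 lies at 0.44.

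The red points in the plot of deviations follow this bend. Of the 11 genes with a median signal of 12 or above (Hk1, Pfkm, Aldoa, Tpi1, Eno3, Pkm, Ldha, Ldhb, Pdk2, Pygm and Pygb), 10 were lowest on VAChT KD 1, or 90.9%, beside 550 of all 678 probe sets at that level, or 81.1%. The 8 genes between 12 and 13 deviated there by a median of -0.14, and Aldoa, Eno3 and Ldha, between 13 and 14, by -0.34. With all arrays, 10 of these 11 bright genes had lower means in VAChT KD hearts, with a median difference of -0.07. Without VAChT KD 1, 7 of the 11 were higher and 4 lower, with a median of 0.02, and of all 678 bright probe sets 557 were higher and 121 lower. A further quantile normalization was run as well, and with it the bright probe sets counted 332 higher and 346 lower, while 2 of the 11 were higher and 9 lower, with a median of -0.04. Without both arrays numbered 2 the 11 also gave 2 higher and 9 lower, with a median of -0.12, beside 169 higher and 509 lower of all bright probe sets. The direction of the bright genes thus depended on the setting.

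The muscle forms of the pathway read above the background guide on every array of both genotypes. No gene of the group differed between the genotypes after adjustment. All 6 arrays exceeded the background guide for 26 of the 29 genes, the exceptions being Slc2a3, Aldoc and Eno2. At an adjusted p of 0.05, limma called none of the 36 probe sets, beside 0.00281% of all probe sets tested, and the smallest adjusted p was 0.417. At an unadjusted p of 0.05, 1 of the 36 was called, Aldoc, which was lower, beside 11.7% of all probe sets, of which 3.93% were called as higher and 7.81% as lower. The methods' ANOVA also gave 1 of the 36 below an unadjusted p of 0.05, Slc16a3, and none after adjustment. The share of all probe sets below that p in the ANOVA is not given here, so this count cannot be read as a result about the group. None of the 36 combined an unadjusted p of 0.05 with a 1.3-fold change, beside 3.79% of all probe sets.

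**Figure D2:**
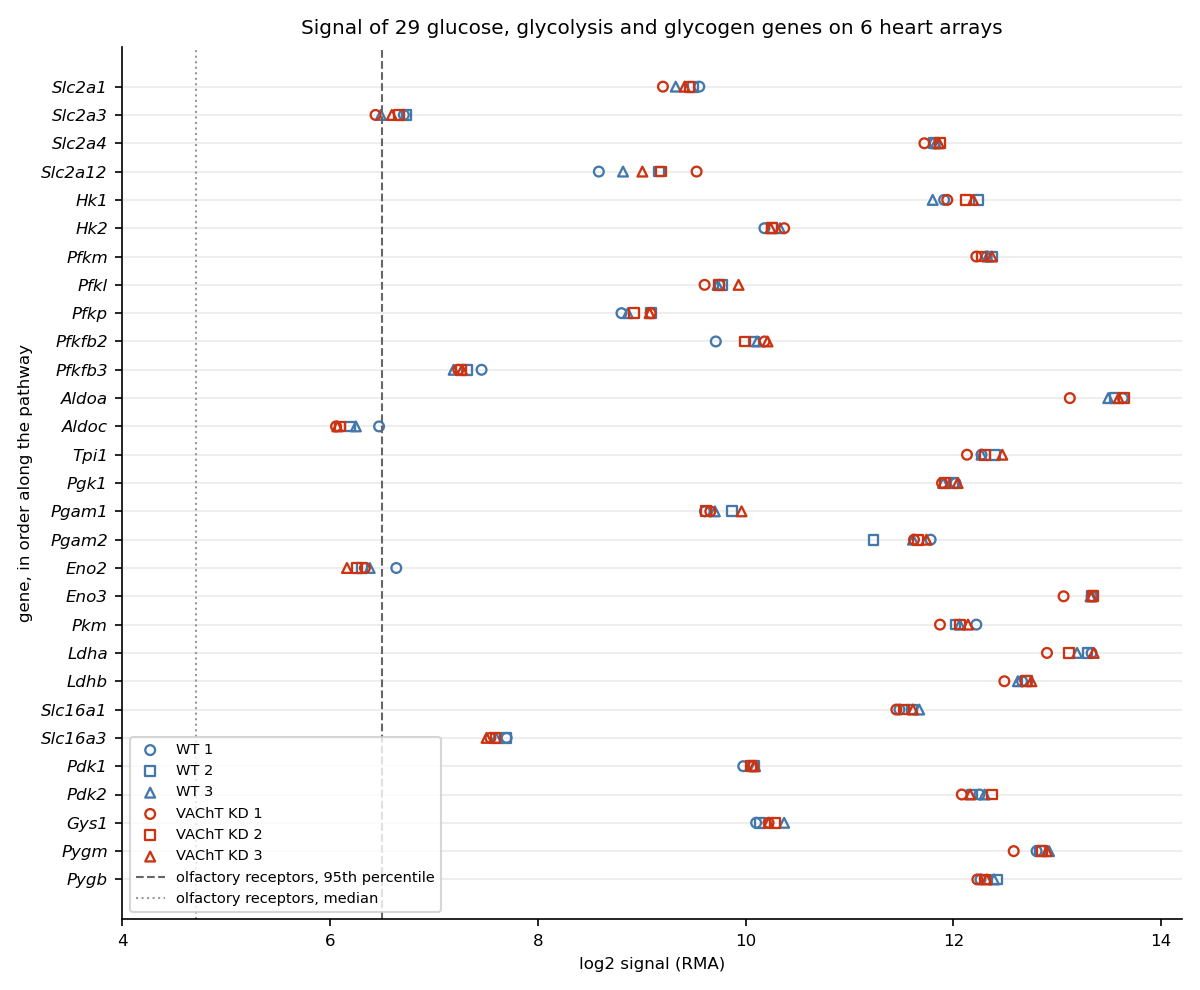
Log2 signal (horizontal axis) of the brightest probe set of 29 genes, listed in pathway order (vertical axis), on each of the 6 arrays, WT in blue and VAChT KD in red, with the olfactory receptors' median (4.71) and 95th percentile (6.5) as vertical lines. Symbols of both genotypes intermingle for most genes, VAChT KD 1 lies to the left for bright ones such as Aldoa and Eno3, and Aldoc, Eno2 and Slc2a3 lie near the background lines.

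Glucose enters the cell through facilitative transporters of the Slc2a family. Slc2a4 (GLUT4), the insulin-responsive transporter of muscle and fat, read 11.82, 11.81 and 11.83 on the WT arrays and 11.72, 11.87 and 11.86 on the VAChT KD arrays. The WT arrays all lay within the VAChT KD range, and the 95% interval of the difference ran from -0.19 to 0.18. Slc2a1 (GLUT1), the basal transporter that prevails in the fetal heart, read 9.55, 9.49 and 9.33 in WT and 9.20, 9.46 and 9.41 in VAChT KD. The groups overlapped, the difference was -0.10 (SE 0.10, adjusted p = 0.679 in limma), and it was -0.02 without VAChT KD 1. Slc2a3 (GLUT3), the high-affinity transporter of neurons, read 6.44 to 6.74 over all arrays and exceeded the background guide on 4 of 6.

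Slc2a12 (GLUT12), another transporter found in muscle and fat, showed the widest difference of the group. It read 8.59, 9.17 and 8.82 in WT hearts and 9.53, 9.19 and 9.01 in VAChT KD hearts. The highest value belonged to VAChT KD 1 and the lowest to WT 1, with WT 2 above VAChT KD 3, so that the groups overlapped. The difference was 0.38 (SE 0.18, 95% interval -0.04 to 0.81, adjusted p = 0.449 in limma). It was 0.24 (adjusted p = 0.613 in limma) without VAChT KD 1 and 0.56 (adjusted p = 0.464 in limma) without both arrays numbered 2. In the latter setting Slc2a12 was the only 1 of the 36 probe sets below an unadjusted p of 0.05, beside 10.6% of all probe sets. It also fell below an unadjusted p of 0.05 in limma when WT 2 (0.54) or VAChT KD 3 (0.50) alone was left out, whereas without WT 1, the lowest array, it was 0.25 and above that p.

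Hexokinase traps glucose as glucose 6-phosphate, with Hk1 as the broadly expressed form and Hk2 as the insulin-regulated form of muscle. Hk2 read 10.18, 10.25 and 10.33 in WT and 10.37, 10.25 and 10.24 in VAChT KD, a difference of 0.04 (SE 0.08, adjusted p = 0.852 in limma). Hk1 had a pair of probe sets that behaved differently. The brighter read 11.91, 12.24 and 11.80 in WT and 11.94, 12.12 and 12.19 in VAChT KD, and the other read 9.78, 9.90 and 9.99 in WT, with 9.84 and 9.92 on VAChT KD 1 and 2 and a value just above WT 3 on VAChT KD 3. A further 16 probe sets list Hk1 together with Rpl17, a ribosomal protein gene with many processed copies, or with other symbols. Over the 6 arrays the brighter Hk1 probe set correlated at 0.993 with the median of those shared probe sets and the other at 0.290, as a description of 6 points, so that the brighter one cannot be read as Hk1 with certainty. The differences were 0.10 (SE 0.13) and 0.03 (SE 0.09), with adjusted p-values of 0.759 and 0.894 in limma.

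Phosphofructokinase commits the sugar to glycolysis, and its muscle, liver and platelet forms are encoded by Pfkm, Pfkl and Pfkp. Pfkm read 12.32, 12.37 and 12.33 in WT and 12.22, 12.27 and 12.37 in VAChT KD. The difference was -0.05 (SE 0.08, adjusted p = 0.803 in limma), with the 95% interval from -0.23 to 0.13. Pfkl read 9.73 to 9.78 in WT and spread from 9.60 to 9.93 in VAChT KD, around the WT values, and Pfkp read 8.80 to 9.09 and 8.93 to 9.09. Their differences were 0.01 and 0.11, with adjusted p-values of 0.975 and 0.642 in limma.

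The enzyme is steered by fructose 2,6-bisphosphate, made and removed by the bifunctional Pfkfb proteins, of which Pfkfb2 is the cardiac form and Pfkfb3 the inducible one. Pfkfb2 read 9.71, 10.08 and 10.11 in WT, and 10.18 and 10.21 on VAChT KD 1 and 3. VAChT KD 2 lay between WT 1 and WT 2, WT 1 was the low array, and the groups overlapped, with a difference of 0.16 (SE 0.13, adjusted p = 0.591 in limma) that was 0.03 without WT 1. For Pfkfb3 the signals spanned 7.19 to 7.46 and the difference was -0.06 (SE 0.09).

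Aldolase cleaves the 6-carbon sugar. Aldoa, the muscle form, read 13.63, 13.55 and 13.49 in WT hearts and 13.12, 13.64 and 13.59 in VAChT KD hearts. VAChT KD 1 lay well below every other array, whereas VAChT KD 2 and VAChT KD 3 lay at the top of the WT range and within it. The difference was -0.11 (SE 0.14, adjusted p = 0.753 in limma) with that array and 0.06 without it. Aldoc, the brain form, read 6.47, 6.19 and 6.25 in WT and 6.06, 6.10 and 6.07 in VAChT KD. No array of either group passed the background guide, and the groups did not overlap. Aldoc and Slc16a3 were the 2 of 36 probe sets without overlap, beside 19.2% of all probe sets. With the labels of both arrays numbered 2 exchanged, both genes would overlap between the groups. Pfkp and Pdk2, which overlap under the deposited labels, would then separate, Pfkp higher and Pdk2 lower in VAChT KD. The share of all probe sets that would separate under this exchange was not computed. The Aldoc difference of -0.23 (SE 0.09, 95% interval -0.45 to -0.01, adjusted p = 0.417 in limma) was -0.22 (adjusted p = 0.535 in limma) without VAChT KD 1 and -0.15 after a further quantile normalization, both above an unadjusted p of 0.05. That call was also lost when any other single array apart from WT 2 was left out, with differences of -0.15 without WT 1, -0.26 without WT 3, -0.24 without VAChT KD 2 and -0.23 without VAChT KD 3. The array WT 1, which was highest for Aldoc, read all probe sets between 6 and 8 higher by a median of 0.07, and VAChT KD 3 read them lower by -0.04. The part of this in the Aldoc difference was not tested.

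Triosephosphate isomerase, encoded by the single gene Tpi1, interconverts the products of aldolase. Tpi1 read 12.27, 12.40 and 12.27 in WT and 12.13, 12.30 and 12.47 in VAChT KD. VAChT KD 1 was lowest and VAChT KD 3 highest, with the WT arrays between, and the difference was -0.01 (SE 0.10, adjusted p = 0.969 in limma).

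Gapdh, which makes NADH in the next step and is widely used as a reference gene, was listed on 25 probe sets, each with 4 to 8 symbols, so none is Gapdh alone. Their medians were 14.53, 14.52 and 14.45 on the WT arrays and 13.52, 14.53 and 14.53 on the VAChT KD arrays. On VAChT KD 1 they spanned 13.26 to 13.60, entirely below the 13.93 to 14.65 of the other 5 arrays. The median difference over these probe sets was -0.31 with all arrays, 0.03 without VAChT KD 1, and -0.005 after a further quantile normalization. None had an unadjusted p below 0.05 in limma, the smallest being 0.253. Gpi1, the phosphoglucose isomerase that acts before phosphofructokinase, had no probe set named for it alone and is not analysed here.

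The next enzymes return ATP and move the phosphate. Pgk1, the phosphoglycerate kinase of somatic tissues, had 3 probe sets that agreed within 0.019 on every array, the brightest reading 11.90 to 12.02 in WT and 11.89, 11.92 and 12.04 in VAChT KD. The difference was -0.02 (SE 0.08, adjusted p = 0.927 in limma) and the groups intermingled. Pgam1, the brain form of phosphoglycerate mutase, had 3 probe sets within 0.066 of each other, and the signals of the brightest ran from 9.61 to 9.96. Pgam2, the muscle form, read 11.78, 11.23 and 11.61 in WT and 11.62, 11.66 and 11.74 in VAChT KD. WT 2 was the single low array, and the difference of 0.14 (SE 0.14, adjusted p = 0.677 in limma) became -0.02 without it.

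Enolase and pyruvate kinase complete the path to pyruvate. Eno3, the muscle enolase, read 13.33, 13.33 and 13.32 in WT and 13.06, 13.34 and 13.33 in VAChT KD. All arrays but VAChT KD 1 lay between 13.32 and 13.34, so the difference of -0.08 (SE 0.10, adjusted p = 0.713 in limma) was 0.01 without that array. Eno2, the neuronal enolase, read 6.64, 6.30 and 6.38 in WT and 6.33, 6.25 and 6.16 in VAChT KD, and passed the background guide on WT 1 alone. Its difference of -0.19 (SE 0.11, adjusted p = 0.493 in limma) was -0.23 without VAChT KD 1 and -0.09 without WT 1, its highest array, and the groups overlapped. Pkm, whose muscle and proliferative products arise by splicing of 1 gene, read 12.22, 12.02 and 12.06 in WT and 11.87, 12.06 and 12.14 in VAChT KD. A dimmer probe set gave 11.34, 11.17 and 11.18 against 11.12, 11.23 and 11.22. The differences were -0.08 and -0.04, and both were -0.00 without VAChT KD 1. These gene-level values do not separate the spliced forms.

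Lactate dehydrogenase reduces pyruvate or, in the reverse direction, lets the heart burn lactate, with Ldha as the muscle subunit and Ldhb as the heart subunit. Ldha read 13.33, 13.29 and 13.19 in WT and 12.90, 13.11 and 13.35 in VAChT KD. The lowest values were those of VAChT KD 1 and VAChT KD 2, but VAChT KD 3 was the highest of all, so the groups overlapped. The difference was -0.15 (SE 0.12, 95% interval -0.44 to 0.14, adjusted p = 0.609 in limma), -0.04 without VAChT KD 1 and -0.26 without VAChT KD 3, where alone it fell below an unadjusted p of 0.05. Ldhb read 12.66, 12.71 and 12.62 in WT and 12.49, 12.70 and 12.75 in VAChT KD, with a difference of -0.02 (SE 0.09) and, without VAChT KD 1, 0.06. Its dimmer probe set differed by -0.03.

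Lactate crosses the membrane on monocarboxylate transporters. Slc16a1 (MCT1), the form of the heart, read 11.48, 11.60 and 11.67 in WT and 11.45, 11.52 and 11.61 in VAChT KD, and the groups overlapped (-0.06, SE 0.09). Slc16a3 (MCT4), the lactate exporter of glycolytic fibres, read 7.70, 7.69 and 7.60 in WT and 7.54, 7.59 and 7.50 in VAChT KD. All VAChT KD arrays were below all WT arrays, with WT 3 and VAChT KD 2 almost touching. The difference was -0.12 (SE 0.08, adjusted p = 0.540 in limma). It missed an unadjusted p of 0.05 in limma and passed it in the methods' ANOVA, which uses the spread of this probe set alone. With each array centred on its median the difference was -0.05, and all probe sets between 6 and 8, its signal band, differed by a median of -0.07.

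Pyruvate dehydrogenase kinases close the mitochondrial door to pyruvate by phosphorylating the dehydrogenase. Pdk1, the hypoxia-responsive form, was nearly level at 9.98, 10.08 and 10.09 in WT and 10.07, 10.05 and 10.08 in VAChT KD. Its SE of 0.07 was the smallest of the group and the difference was 0.02, with the 95% interval from -0.16 to 0.19. Pdk2, the broadly expressed form, read 12.25, 12.18 and 12.30 in WT and 12.08, 12.37 and 12.16 in VAChT KD (-0.04, SE 0.10, adjusted p = 0.885 in limma).

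Glycogen is built by Gys1, the muscle glycogen synthase, and broken down by Pygm and Pygb, the muscle and brain glycogen phosphorylases, both of which are used in heart. Gys1 read 10.10, 10.14 and 10.37 in WT and 10.22, 10.28 and 10.22 in VAChT KD, so the VAChT KD arrays lay within the WT range (0.04, SE 0.09). Pygm read 12.80, 12.83 and 12.92 in WT and 12.58, 12.85 and 12.90 in VAChT KD, with VAChT KD 1 alone below WT. The difference was -0.07 (SE 0.10) with that array and 0.02 without it. Pygb ran from 12.26 to 12.42 in WT and from 12.23 to 12.32 in VAChT KD, a difference of -0.08 (SE 0.08, adjusted p = 0.691 in limma).

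**Figure D3:**
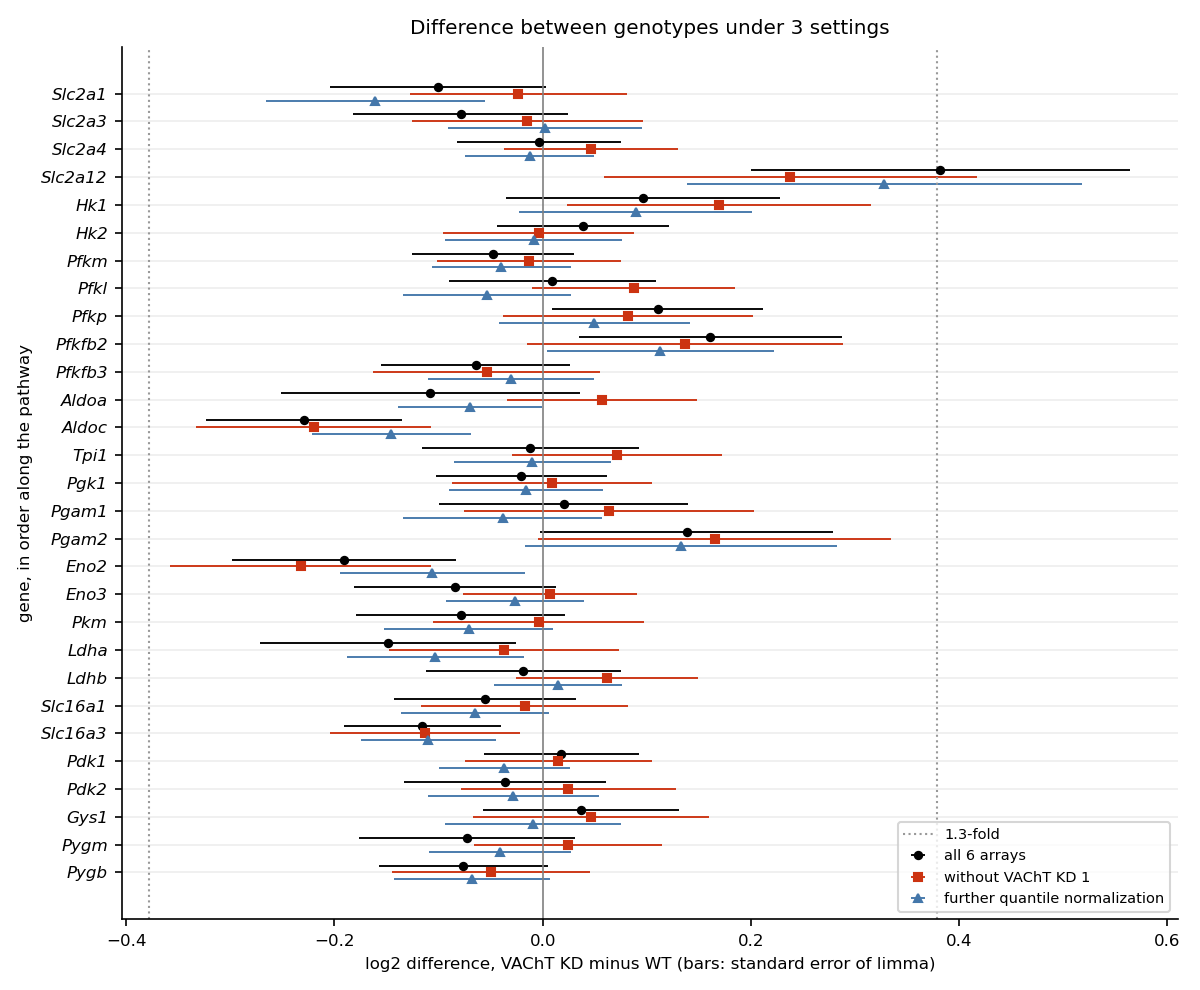
Log2 difference, VAChT KD minus WT (horizontal axis, bars for the SE of limma), of 29 genes in pathway order (vertical axis), with all 6 arrays (black circles), without VAChT KD 1 (red squares) and after a further quantile normalization (blue triangles); dotted lines mark 1.3-fold. Black circles lie between -0.23 (Aldoc) and 0.38 (Slc2a12), and for Aldoa, Eno3 and Ldhb the red squares lie to the right of 0 and the black circles to the left.

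The plot of differences shows how small the whole group's differences were. With all arrays, 10 genes were higher and 19 lower, with a median of -0.04, and over all 19938 genes named singly 8555 were higher and 11383 lower, with a median of -0.03. The absolute difference was under 0.1 for 19 of the 29. Without VAChT KD 1, 17 were higher and 12 lower, with a median of 0.01, and 9 genes changed sign (Slc2a4, Hk2, Aldoa, Tpi1, Pgk1, Eno3, Ldhb, Pdk2 and Pygm). After a further quantile normalization 7 were higher and 22 lower, with a median of -0.03, and 7 genes changed sign. Without both arrays numbered 2, 10 were higher and 19 lower, with a median of -0.03, and 4 genes changed sign. In that setting Pfkp was 0.25, Pfkfb2 0.28, the brighter Hk1 probe set 0.21, Aldoc -0.30 and Pgam2 -0.01. Each of these was above an unadjusted p of 0.05 in limma. Without VAChT KD 1 none of the 36 probe sets had an unadjusted p below 0.05 in limma, beside 9.62% of all. For 21 of the 29 genes the 95% interval lay within 1.3-fold in either direction. The interval reached 1.3-fold for the other 8, Slc2a12, Hk1, Pfkfb2, Aldoa, Aldoc, Pgam2, Eno2 and Ldha, so these arrays do not bound their difference below that size. The sign was the same in every setting that was run for 11 genes (Aldoc and Eno2 drop out of the filter on dim probe sets): Slc2a1, Aldoc, Eno2, Pkm, Ldha, Slc16a3 and Pygb lower, and Slc2a12, Hk1, Pfkp and Pfkfb2 higher. For Hk1 this holds for the brighter probe set, which cannot be read as Hk1 with certainty. The other Hk1 probe set differed by 0.03 with all arrays and by -0.02 after a further quantile normalization. The variance trend, robust eBayes, the methods' ANOVA, the replicate block and the filter on dim probe sets leave the difference itself unchanged. A sign could not change in those settings, and exchanged labels were not among the settings run.

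The choice between isoforms was followed as the log2 ratio of both signals on the same array, of which only the change between genotypes can be read. Both members could be measured for 12 of 14 pairs. Under the deposited labels the groups separated in none of them. With the labels of both arrays numbered 2 exchanged, Pfkp over Pfkm and Pdk1 over Pdk2 would separate, both higher in VAChT KD. How often other pairs of genes would separate under that exchange was not computed. The smallest p over the pairs, adjusted over the 12, was 0.75 in the exact two-sided permutation test, which cannot go below 0.1 for 3 against 3 before adjustment. For Slc2a1 over Slc2a4 the ratio was lower by -0.10 in VAChT KD (exact p = 0.3), and for the fetal-type Hk1 over Hk2 it was higher by 0.06 with the brighter Hk1 probe set (exact p = 0.8) and differed by -0.007 with the other (exact p = 1). For Ldha over Ldhb the values were 0.66, 0.59 and 0.57 in WT and 0.41, 0.41 and 0.60 in VAChT KD, so VAChT KD 3 lay among the WT arrays (-0.13, exact p = 0.3). Pfkp over Pfkm was higher by 0.16 (exact p = 0.3), and Pygb over Pygm differed by -0.003 (exact p = 1).

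**Figure D4:**
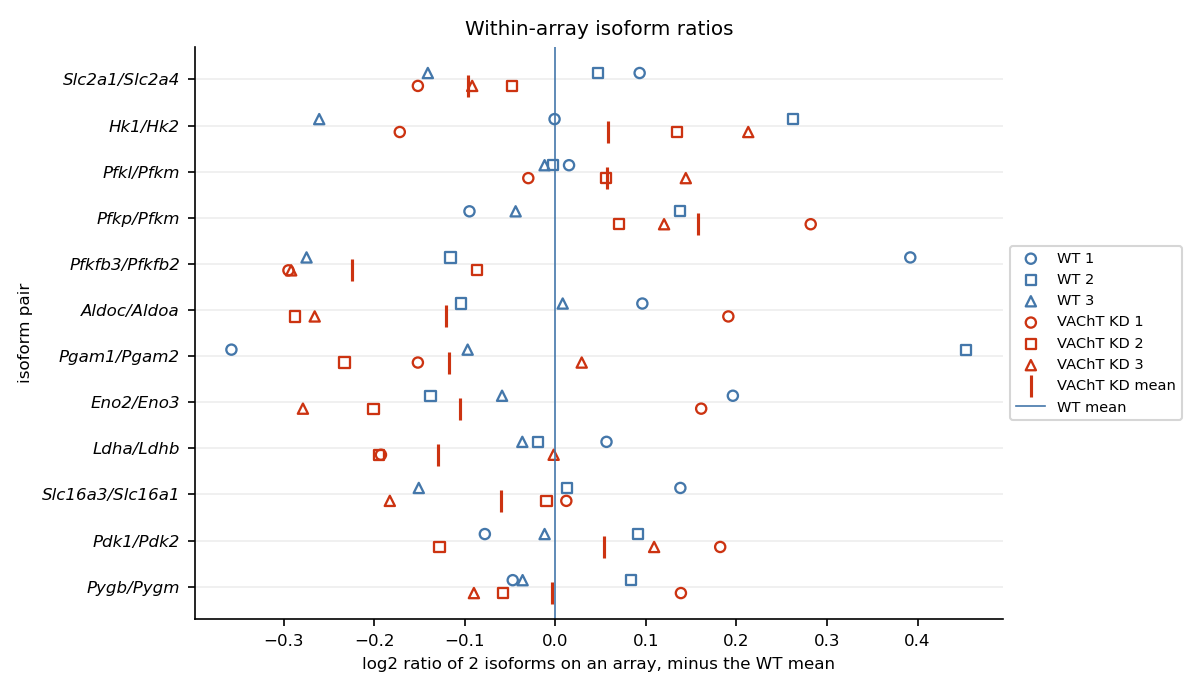
Log2 ratio of the 2 isoforms of each pair on the same array, minus the mean of the WT arrays (horizontal axis), for 12 pairs (vertical axis), with blue symbols for WT arrays, red symbols for VAChT KD arrays and a red bar for the VAChT KD mean. Red and blue symbols overlap for all pairs, and the bars lie between -0.23 (Pfkfb3 over Pfkfb2) and 0.16 (Pfkp over Pfkm).

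The plot of isoform ratios also shows where 1 array decided the overlap. Without VAChT KD 1 the groups separated for 4 pairs, Pfkl over Pfkm (0.10), Aldoc over Aldoa (-0.28), Eno2 over Eno3 (-0.24) and Pygb over Pygm (-0.07). On VAChT KD 1 the last 3 of these ratios lay above most or all WT arrays, whereas its Pfkl over Pfkm ratio was the lowest of the 6 arrays. Aldoc and Eno2 did not pass the background guide on all arrays, so those ratios rest on dim signals. Groups of fewer arrays separate more easily, and how often other pairs of genes separate without VAChT KD 1 was not computed.

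Other genes of glucose metabolism were counted beside the group. The 7 lists held 108 genes, of which 101 had a probe set of their own. Of these, 2 were higher and 6 lower at an unadjusted p of 0.05 in limma, 8 of 101 beside 11.7% of all probe sets (3.93% higher and 7.81% lower), and none passed after adjustment. The list for other tissues had 19 measured genes, not all of them isoforms of a member. Of these 19, 9 passed the background guide on all arrays, among them Ldhd, Slc16a7 and Pygl with mean signals of 9.23, 7.91 and 7.73. The testis and liver forms Gapdhs, Pgk2, Ldhc and Gys2 and the hexokinases Hk3 and Hkdc1 passed it on none. In this list 1 was higher and 4 lower, and the 4 with the smallest p were Gys2, the liver glycogen synthase (-0.28), Slc2a5, the fructose transporter (-0.27), Slc2a9, a urate transporter (-0.25), and Gapdhs, the sperm form of Gapdh (-0.31), each with an adjusted p of 0.409 in limma. All 4 read between 4.79 and 6.87 on average. The single higher gene, named after its values were seen, was Bpgm, which makes 2,3-bisphosphoglycerate in red cells. It read 7.37, 7.32 and 7.33 in WT and 7.41, 7.64 and 7.87 in VAChT KD, without overlap (0.30, adjusted p = 0.416 in limma). Probe sets shared by the beta-globin genes read 13.42, 13.64 and 13.63 in WT and 13.01, 14.23 and 14.21 in VAChT KD. Of the 2 erythroid markers with a probe set of their own, Alas2, the heme synthesis enzyme of red cells, read 8.65, 9.18 and 9.31 against 8.89, 9.83 and 10.03 (0.54). Slc4a1, the red cell anion exchanger, went the other way, at 7.59, 7.31 and 7.32 against 6.74, 7.33 and 7.35 (-0.26), and both overlapped between groups. The part of red cells in the Bpgm difference was not tested.

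Genes of pyruvate entry into mitochondria (12 measured), the pentose phosphate pathway (7) and the NADH shuttles (10) had no call in either direction, with median differences of 0.07, 0.02 and -0.06. Among 21 other glycogen genes 1 was higher, Phkg1, the catalytic subunit of muscle phosphorylase kinase. Its signals were 8.07 and 8.30 on WT 2 and 3, lower on WT 1, and 8.29, 8.36 and 8.54 in VAChT KD. WT 3 and VAChT KD 1 were nearly level, and the difference was 0.28 (adjusted p = 0.414 in limma). Among 26 regulators of insulin, AMPK and transcriptional control 1 was lower, Txnip, the glucose-induced protein that withdraws glucose transporters from the membrane. Txnip read 12.73, 12.44 and 12.41 in WT and 11.79, 12.41 and 12.14 in VAChT KD, with WT 3 and VAChT KD 2 level. The difference of -0.41 (SE 0.17, adjusted p = 0.416 in limma) was -0.25 without VAChT KD 1, above an unadjusted p of 0.05. It was -0.40 after a further quantile normalization and -0.60 without both arrays numbered 2, both below that p. Of 6 genes of gluconeogenesis 1 was lower, G6pc, the liver glucose 6-phosphatase (-0.35, adjusted p = 0.409 in limma), with a mean signal of 5.25, below the background guide.

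Markers of the cells in the tissue were read beside these values. The mean signal of 6 cardiomyocyte genes was 14.05, 14.06 and 14.02 in WT and 13.24, 14.10 and 14.10 in VAChT KD, so it was low on VAChT KD 1 as the bright glycolytic genes were, and Myh6, the alpha myosin heavy chain of the adult mouse heart, read 12.91 there against 13.74 to 13.82 elsewhere. Fibroblast, endothelial, smooth muscle and leukocyte lists had median differences of -0.02, 0.03, 0.17 and 0.06. The 5 atrial genes had means of 9.99, 9.70 and 9.90 in WT and 9.94, 9.96 and 10.45 in VAChT KD. Of 8 skeletal muscle genes 3 passed the background guide on all arrays, and all 8 had lower means in VAChT KD, with list means of 6.53 to 6.77 in WT and 6.40 to 6.48 in VAChT KD. Slc16a3, whose known sites include such fibres, was lower on the same arrays. The median difference of these 8 was -0.17, and -0.09 after a further quantile normalization. All probe sets between 6 and 8, where the list means lie, differed by a median of -0.07. Adipocyte genes, the other known site of Slc2a4 and Slc2a12, had list means of 8.06, 7.80 and 7.64 in WT and 7.49, 7.61 and 7.73 in VAChT KD, with 0 higher and 5 lower. Among them Ucp1 read 7.41 on WT 1 and 5.79 to 6.07 on the other arrays, and Adipoq passed the background guide on 0 arrays. The median difference of these adipocyte genes was -0.07 with all arrays and 0.03 without VAChT KD 1. Nerve and glia genes, the cells for which Aldoc and Eno2 are known, passed the guide on all arrays for 0 of 5 measured, with list means of 6.13 to 6.29 in WT and 6.04 to 6.09 in VAChT KD. The part of these cells in any difference was not tested.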

How the data were processed

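RNA from hearts of WT and VAChT KD mice was hybridised to 6 arrays, 3 per genotype, and the labels' genotype gave the groups. The authors summarised the probes to gene level by RMA in Partek software, so the deposited values are log2 signals for 35556 probe sets, already normalized across arrays. The genome build is not given in the sources used here. In the platform annotation 21789 probe sets carry 1 gene symbol, 1621 several and 12146 are unlisted. The members and lists were chosen with earlier results of these data known.

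No filter was applied to the log2 values. Linear models were fitted per probe set in limma 3.58.1 under R 4.3.3, with moderated variances (eBayes) and Benjamini-Hochberg adjusted p-values across the whole array, and the script was first checked on simulated data. A gene with several probe sets is given by the one with the highest mean, and the others are given beside it where they differ. Named genes were all members and, of each other pathway list, up to 4 genes with the smallest unadjusted p under 0.05. Isoform ratios were compared by exact permutation tests, two-sided (scipy 1.17.1). The number of arrays limits the precision. The settings varied were a filter on dim probe sets, centring on medians, a further quantile normalization, a variance trend, robust eBayes, array weights, the methods' ANOVA, the mean over a gene's probe sets, a replicate block, leaving out each array, and leaving out both arrays numbered 2. The other Hk1 probe set was added as an alternative after seeing the data. The quantitative PCR, protein, superoxide and isoproterenol experiments of the study are not analysed here.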

Additional observations from a re-analysis of the deposited data

How the results depend on the processing

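No probe set of the 29 genes passed an adjusted p of 0.05 in limma under any setting that was run, and the median difference stayed within the spread of the members' median between arrays (0.149). The count at an unadjusted p of 0.05, 1 as reported, was 0 after a further quantile normalization, without dim probe sets, with a variance trend and with array weights, and between 0 and 2 when 1 array was left out. The count that also reached 1.3-fold, 0 as reported, was 1 with each array centred on its median and 1 without both arrays numbered 2, and between 0 and 1 when 1 array was left out, the gene being Slc2a12 each time. For most of these settings no share over all probe sets is given. The counts there cannot be read as a result about the group. Isoform pairs without overlap, 0 as reported, numbered between 0 and 4 when 1 array was left out, with 4 reached without VAChT KD 1, and 3 without both arrays numbered 2. Fewer arrays separate more easily, and no share over other pairs of genes was computed beside these counts. Deviations of arrays of the same number correlated at 0.06, -0.12 and 0.13 for numbers 1, 2 and 3. Arrays of different numbers were not compared, so whether the numbers pair the samples was not tested. With the replicate block the count at an unadjusted p of 0.05 was 0. The causes were not tested. With 3 pools per genotype, SEs of 0.07 to 0.18 limit what could be seen, and Aldoc, Eno2 and Slc2a3 are further limited by signals at background.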
